A study of Mus musculus with 15 samples.

Results

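The genes described here are Srebf1, which encodes the transcription factors SREBP-1a and SREBP-1c, and 9 genes of fatty acid synthesis that SREBP-1c is known to activate or that act beside its targets: Fasn, Acaca, Acacb, Acly, Scd1, Elovl5, Elovl6, Me1 and Thrsp. They were taken by gene symbol, and all 10 were found among the 45861 genes of the deposited expression table. All 10 passed the filter on low values, at least 1 FPKM in at least 3 libraries, as did 13840 genes in all. FPKM is the number of fragments per kilobase of transcript and scaled to the total of the library, so that levels of different genes can be set side by side.

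RNA was sequenced from the livers of C57BL/6 mice of both genotypes in 15 libraries, which were 4 of Fkbp5 knockout (KO) mice given ethanol, 3 of KO mice on control diet, 4 of wild-type (WT) mice given ethanol and 4 of WT mice on control diet. Fkbp5 encodes a co-chaperone of HSP90 that lowers the sensitivity of the glucocorticoid receptor. Ethanol mice followed the NIAAA binge model, a liquid diet (F1258SP) raised to 5% ethanol and held for 10 days, with an oral dose of ethanol at 5 g/kg on day 11. Control mice received the diet F1259SP and a gavage of maltose, and the livers of all mice were taken 9 h after the gavage. The labels do not say which part of Fkbp5 was deleted, in which cells, or the sex or age of the mice.

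Some properties of the libraries bear on the results. Fkbp5 stood at 2.45 to 5.41 FPKM in KO ethanol and 23.9 to 54.5 FPKM in WT ethanol livers, and at 0.351 to 1.56 FPKM in KO control and 3.27 to 15.2 FPKM in WT control livers, so that KO was below WT on each diet. The labels of WT ethanol replicate 4 conflict, with WT in the title and KO in the genotype entry, and the title was followed. Its Fkbp5 level was 45.2 FPKM, above that of every KO liver. In KO control replicate 1 the 10 highest genes held 59.3% of all FPKM, against 19.7 to 28.5% elsewhere. Xist was high in 1 of 4 KO ethanol, 2 of 3 KO control, 2 of 4 WT ethanol and 2 of 4 WT control livers. Hepatocyte markers were high throughout, with summed levels of 9540 to 26500 FPKM; the lowest sum is of KO ethanol replicate 3, where Alb is listed at 0. Counts were not used here, and steps in the lowest FPKM values put the genes with 1 isoform (Fasn, Scd1, Elovl6 and Thrsp) at about 480 to 204510 fragments in a library.

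SREBP-1c is made as a precursor in the membrane of the endoplasmic reticulum. SCAP escorts it to the Golgi apparatus, INSIG proteins hold it back, and site-1 and site-2 proteases cut free the part that enters the nucleus and activates lipogenic genes. Insulin and the oxysterol receptor LXR raise transcription from the 1c start of Srebf1, and in liver SREBP-1c is best known for turning carbohydrate into fatty acids after feeding. ATP-citrate lyase (Acly) supplies acetyl-CoA, the acetyl-CoA carboxylases (Acaca, Acacb) make malonyl-CoA, fatty acid synthase (Fasn) builds palmitate with NADPH that malic enzyme (Me1) helps to supply, and Elovl6, Elovl5 and Scd1 lengthen and desaturate the product.

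Promoters of 3 of these genes are shown. Srebf1 and Fasn share a long element, and Thrsp had the highest ethanol difference of the 10 genes, although it was not called. The sequences are from RefSeq on GRCm38.p6, each runs from 250 bases before to 50 bases after a start site, and all 3 lie on the minus strand: Srebf1 at the 1c start, chr11:60210422-60210721, Fasn, chr11:120824498-120824797, and Thrsp, chr7:97417501-97417800. Capitals mark matches to TGACCGNNAGTAACCCC, to TCACCC, a core found in sterol regulatory elements, and to CCAAT, the box of the factor NF-Y, or its complement ATTGG; in Fasn a CCAAT and an ATTGG overlap.
Srebf1: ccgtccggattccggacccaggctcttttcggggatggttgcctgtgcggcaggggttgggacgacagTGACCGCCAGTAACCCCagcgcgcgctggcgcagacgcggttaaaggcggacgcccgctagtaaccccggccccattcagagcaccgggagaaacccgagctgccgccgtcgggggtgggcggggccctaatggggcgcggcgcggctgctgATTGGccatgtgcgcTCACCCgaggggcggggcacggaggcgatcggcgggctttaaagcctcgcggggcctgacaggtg
Fasn: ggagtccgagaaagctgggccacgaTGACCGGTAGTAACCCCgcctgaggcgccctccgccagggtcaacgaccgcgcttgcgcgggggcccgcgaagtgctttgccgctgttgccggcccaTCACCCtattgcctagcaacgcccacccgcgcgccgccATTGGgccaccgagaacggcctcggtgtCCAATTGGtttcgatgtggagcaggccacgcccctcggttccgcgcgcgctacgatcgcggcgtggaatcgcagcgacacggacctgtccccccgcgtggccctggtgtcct
Thrsp: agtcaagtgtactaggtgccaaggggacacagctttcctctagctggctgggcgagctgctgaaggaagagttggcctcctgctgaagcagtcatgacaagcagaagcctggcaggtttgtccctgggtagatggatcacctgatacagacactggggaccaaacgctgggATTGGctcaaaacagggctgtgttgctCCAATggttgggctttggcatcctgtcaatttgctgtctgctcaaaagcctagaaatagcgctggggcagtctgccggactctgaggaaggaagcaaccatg

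The longest of these motifs, which is the stretch of 17 bases that the Srebf1 and Fasn promoters share but for a pair of adjacent bases and matches the element known to bind LXR there, was searched on both strands of 32851 promoters of this length. It was found in 3 of them, or 0.00913%. The matches in Srebf1 and Fasn were given in advance, since the motif was taken from these promoters. The third was that of Abca1 (chr4:53159846-53160145), a cholesterol exporter and known LXR target. The element begins at -182 from the start in Srebf1, at -225 in Fasn and at -67 in Abca1, and the Srebf1 copy differs from the others in the middle positions, shown in lower case.
Srebf1: TGACCGccAGTAACCCC
Fasn: TGACCGgtAGTAACCCC
Abca1: TGACCGgtAGTAACCCC

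RefSeq promoters were matched for 9 of the 10 genes, all but Scd1, with 12 promoters in all. TCACCC lay in 3 of the 12, those of Srebf1 at the 1c start, Fasn and Me1, against 16.2% of all promoters. CCAAT lay in 8 of the 12 against 37.4% of all promoters, and the E-box CACGTG in 1, that of Elovl5, against 7.15%. A match describes these letters in this window only.

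Livers of ethanol-fed mice held less RNA of Srebf1 and of 4 of the enzymes. Averaged over both genotypes, 5 of the 10 genes fell with ethanol and 0 rose, while in all genes tested 20.9% were called, 13.9% as lower. The genes that fell were Scd1, Srebf1, Acly, Elovl5 and Me1. The median difference of log2(FPKM + 1), ethanol minus control, was -1.001 over the 10 genes and -0.07 over all genes. Tests here are limma's on log2(FPKM + 1), 2-sided, over all 13840 genes, and called genes are those whose p, adjusted by Benjamini and Hochberg's method, was under 0.05. In bulk tissue, fewer cells of a type and less RNA per cell cannot be told apart.

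**Figure D1:**
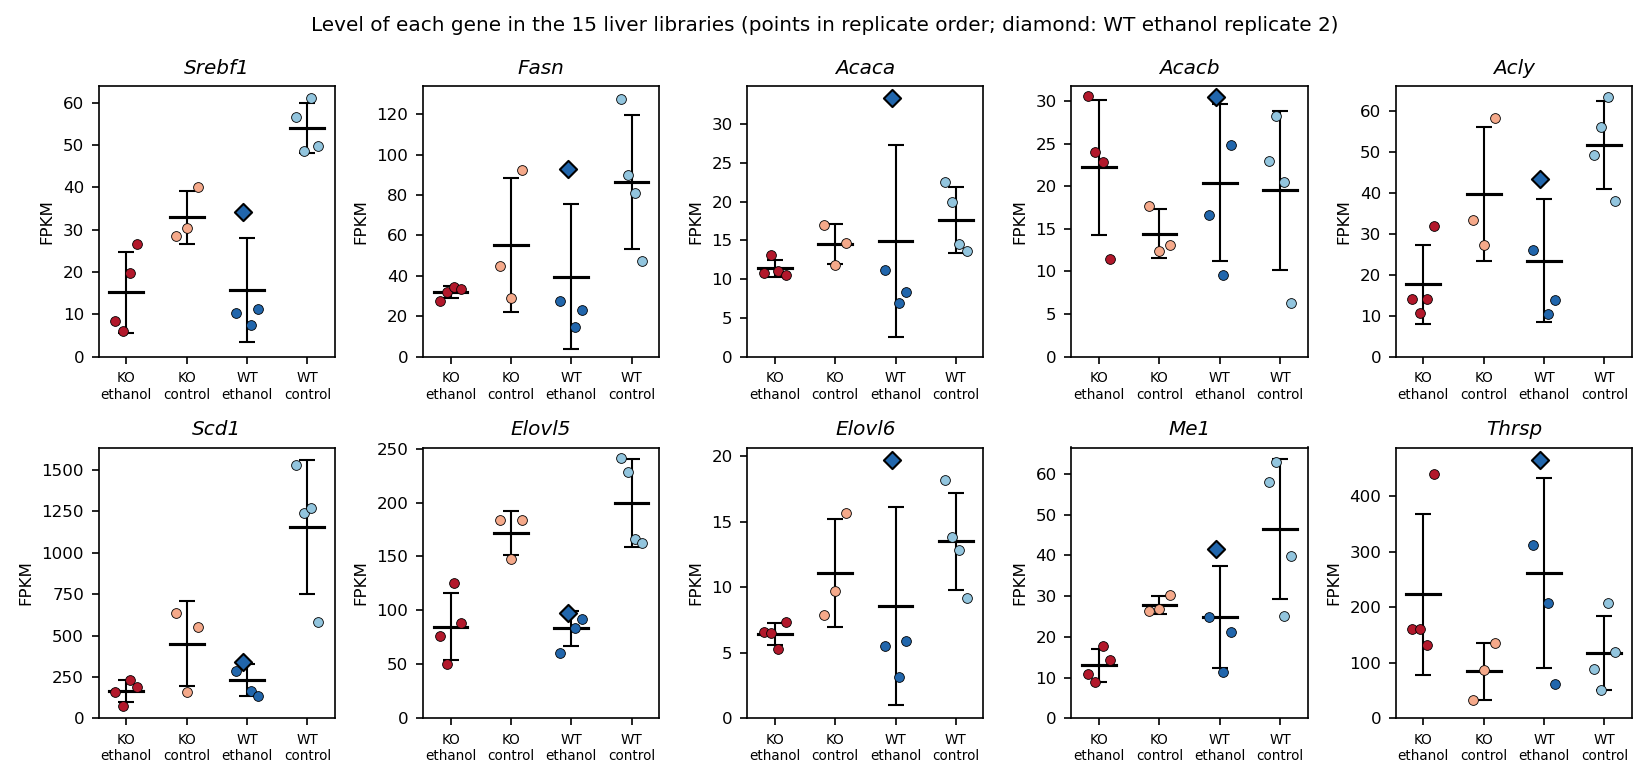
FPKM of each of the 10 genes in every liver library, by group (KO ethanol, KO control, WT ethanol, WT control); points are libraries, and bars give the mean and SD of 3 or 4 libraries. WT ethanol replicate 2, drawn as a diamond, is the highest of its group for all 10 genes, and in Srebf1, Scd1 and Elovl5 it still lies below every WT control library.

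Srebf1 stood at 8.43, 6.19, 19.8 and 26.6 FPKM in the 4 KO ethanol livers, against 28.5, 30.4 and 40.1 FPKM in KO control livers. It stood at 10.46, 34.1, 7.59 and 11.3 FPKM in WT ethanol livers, against 56.7, 48.6, 61.1 and 49.8 FPKM in WT control livers. Within each genotype every ethanol liver was below every control liver. The log2 difference was -1.26 (SE 0.48, adjusted p = 0.149) in KO and -1.93 (SE 0.44, adjusted p = 0.0217) in WT, with -1.60 (SE 0.33, adjusted p = 0.00503) for the mean of both genotypes by limma. Srebf1 therefore fell in WT and in the mean, and in KO it did not pass the test. The WT call was lost without WT ethanol replicate 1 or 3 or WT control replicate 1 or 2, with adjusted p between 0.053 and 0.0635, and without the filter on low values (adjusted p = 0.0508).

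Groups that do not overlap were common in these data. In KO, 15.2% of all genes had every ethanol liver below every control liver, and in WT 9.28% did. Of the 10 genes, Srebf1, Elovl5, Elovl6 and Me1 did so in KO, where the smallest exact permutation p of 4 against 3 livers is 0.0571. Srebf1, Scd1 and Elovl5 did so in WT, where the smallest exact permutation p of 4 against 4 livers is 0.0286, which all 3 reached.

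Acly, the cytosolic enzyme that splits citrate into acetyl-CoA, averaged 17.8 ± 9.63 FPKM in KO ethanol and 39.7 ± 16.4 FPKM in KO control livers (SD, n = 4 and 3). It averaged 23.6 ± 14.97 FPKM in WT ethanol and 51.8 ± 10.8 FPKM in WT control livers (SD, n = 4 each). The KO ethanol livers were alike at 14.2, 10.7 and 14.2 FPKM apart from replicate 4 at 32.0 FPKM, which lies within the KO control range of 27.3 to 58.3 FPKM. Acly fell in the mean of both genotypes, by 1.22 on the log2 scale (SE 0.31, limma adjusted p = 0.0143). Neither genotype alone passed the test, with adjusted p of 0.153 in KO and 0.0744 in WT.

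Acaca, the carboxylase that makes the malonyl-CoA used in synthesis, was not called in either genotype or in their mean. It stood at 10.9, 13.1, 11.1 and 10.6 FPKM in KO ethanol livers, against 17.02, 11.9 and 14.7 FPKM in KO control livers. It stood at 11.2, 33.4, 6.96 and 8.41 FPKM in WT ethanol livers, against 22.5, 20.0, 14.5 and 13.7 FPKM in WT control livers. The WT ethanol livers thus held the highest value of the study in replicate 2 and the 2 lowest in replicates 3 and 4. The mean difference of log2 values was -0.39 (SE 0.26, limma adjusted p = 0.3), and it became -0.62 (adjusted p = 0.00925) without WT ethanol replicate 2. Without WT ethanol replicate 3 it became -0.27 and was not called.

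Acacb makes the malonyl-CoA that restrains uptake of fatty acids into mitochondria. It stood at 30.5, 24.03, 22.8 and 11.5 FPKM in KO ethanol livers, against 17.7, 12.4 and 13.1 FPKM in KO control livers. It stood at 16.7, 30.5, 9.54 and 24.9 FPKM in WT ethanol livers, against 22.96, 28.2, 20.5 and 6.33 FPKM in WT control livers. Its groups overlapped in both genotypes, and the mean log2 difference of 0.32 (SE 0.32, limma adjusted p = 0.497) was not called.

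The ratio of Acacb to Acaca in FPKM was 1.95 ± 0.71 in KO ethanol and 0.991 ± 0.0902 in KO control livers (SD, n = 4 and 3). It was 1.68 ± 0.883 in WT ethanol and 1.08 ± 0.448 in WT control livers (SD, n = 4 each). Every KO ethanol liver, at 2.81, 1.84, 2.06 and 1.09, was above every KO control liver, at 1.04, 1.05 and 0.887. The log2 ratio differed by 0.90 in KO, with an exact permutation p of 0.0571, the smallest that these groups allow, and by 0.64 in WT, with an exact permutation p of 0.371.

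Fasn stood at 27.6, 32.1, 34.3 and 33.5 FPKM in KO ethanol livers, against 44.7, 29.0 and 92.2 FPKM in KO control livers. It stood at 27.7, 92.8, 14.9 and 23.4 FPKM in WT ethanol livers, against 127.7, 89.9, 80.8 and 47.2 FPKM in WT control livers. The KO ethanol livers were closely alike, with a coefficient of variation of 9.33%, against 38.3 to 90.2% in the other 3 groups. The log2 difference was -0.62 (SE 0.52, adjusted p = 0.521) in KO, -1.37 (SE 0.48, adjusted p = 0.0967) in WT and -0.99 (SE 0.35, adjusted p = 0.0619) for the mean by limma. Fasn was thus not called, although 3 of 4 WT ethanol livers lay below all 4 WT control livers. Without WT ethanol replicate 2 the mean difference was -1.25 (adjusted p = 0.00782), and it was also called without KO control replicate 2 or WT control replicate 4, with an adjusted p of 0.049 in each, and with quantile normalization (0.0471) or library weights (0.0418). Among fits that left out 1 library it was weakest without KO control replicate 3, at -0.77, and not called there.

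Me1, which yields NADPH from malate, stood at 10.9, 8.80, 17.9 and 14.4 FPKM in KO ethanol livers, against 26.5, 26.8 and 30.4 FPKM in KO control livers. It stood at 25.0, 41.6, 11.5 and 21.3 FPKM in WT ethanol livers, against 57.9, 62.9, 25.2 and 40.0 FPKM in WT control livers. The KO control livers were closely alike, and all 4 KO ethanol livers lay below them. Me1 fell by 1.01 on the log2 scale in the mean of both genotypes (SE 0.26, limma adjusted p = 0.0158), with adjusted p of 0.119 in KO and 0.117 in WT.

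Scd1 makes oleate and palmitoleate and had the highest mean FPKM of the 10 genes in control livers of both genotypes. It stood at 160.3, 74.6, 232 and 192 FPKM in KO ethanol livers, against 639, 157.5 and 551 FPKM in KO control livers. It stood at 285, 339, 165 and 136 FPKM in WT ethanol livers, against 1533, 1241, 1270 and 581.6 FPKM in WT control livers. KO control replicate 2 lay among the ethanol livers, and the groups overlapped in KO only. Scd1 fell by 2.33 on the log2 scale in WT (SE 0.49, limma adjusted p = 0.0159) and by 1.83 in the mean of both genotypes (SE 0.36, adjusted p = 0.00442). In KO the difference was -1.32 (SE 0.53, adjusted p = 0.17). It was -1.96 without KO control replicate 2 and -0.95 without KO control replicate 1, with no call in any of these fits. Reads may be shared between Scd1 and the related Scd genes, which was not tested.

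Elovl5, which lengthens polyunsaturated fatty acids, was the one gene called in each genotype. It stood at 76.2, 49.9, 125.4 and 88.3 FPKM in KO ethanol livers, against 183.4, 148 and 183.6 FPKM in KO control livers. It stood at 60.5, 97.8, 84.1 and 91.8 FPKM in WT ethanol livers, against 241, 228, 166 and 163 FPKM in WT control livers. Every ethanol liver of either genotype was below every control liver of either genotype. Elovl5 fell by 1.07 on the log2 scale in KO (SE 0.27, adjusted p = 0.0422), by 1.25 in WT (SE 0.25, adjusted p = 0.0124) and by 1.16 in the mean (SE 0.18, adjusted p = 0.00126) by limma. The KO call is weakly held, since it was lost in 10 of 15 fits that left out 1 library, with adjusted p up to 0.122. These were the fits without KO ethanol replicate 1, 2 or 4 and those without any one of the KO control or WT control libraries.

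In KO the count of 1 called gene of 10 stands against 4.13% of all genes, 2.72% as lower. The direction of the calls over all genes depended on the scaling: 34% of those in KO were higher as deposited, 58.3% with median-ratio, 52.2% with quantile and 94.6% with common-sum scaling, and in the mean 33.6%, 46.3%, 46.7% and 62.4% in the same order. In WT the count of 3 of 10, Srebf1, Scd1 and Elovl5, stands against 7.7% of all genes, 4.62% as lower. Without WT ethanol replicate 2 the WT count was 7, with Fasn, Acaca, Acly and Elovl6 added. The count for the mean of both genotypes was then 8, with Fasn, Acaca and Elovl6 added. Without WT ethanol replicate 3, the lowest of its group for 7 of the 10 genes, the WT count was 2. The count for the mean was then 5, as with all libraries.

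Elovl6, which lengthens palmitate to stearate, stood at 6.59, 6.49, 5.28 and 7.36 FPKM in KO ethanol livers, against 7.85, 9.74 and 15.7 FPKM in KO control livers. It stood at 5.51, 19.7, 3.12 and 5.91 FPKM in WT ethanol livers, against 18.2, 13.9, 12.9 and 9.15 FPKM in WT control livers. In KO the groups do not overlap by a narrow gap, and in WT replicate 2 of the ethanol group was the highest of all 15 livers. The mean log2 difference was -0.75 (SE 0.28, limma adjusted p = 0.0759), and without WT ethanol replicate 2 it was -0.98 (adjusted p = 0.00396). Without WT ethanol replicate 3 it was -0.60 and not called.

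Thrsp (Spot 14), a small nuclear protein tied to lipogenesis that responds to thyroid hormone and carbohydrate, was higher on average with ethanol. It stood at 160.3, 161, 132 and 439.5 FPKM in KO ethanol livers, against 32.4, 87.2 and 135 FPKM in KO control livers. It stood at 312, 466, 207 and 62.0 FPKM in WT ethanol livers, against 89.7, 51.3, 208 and 119 FPKM in WT control livers. The lowest KO ethanol liver was just below the highest KO control liver, and the WT groups overlapped widely. The mean log2 difference was 1.21 (SE 0.47, limma adjusted p = 0.0825), which was not called; without WT ethanol replicate 4, whose labels conflict, it was 1.5 (adjusted p = 0.0187). Thrsp was also called as higher when that library was grouped as KO, at 1.34 (adjusted p = 0.0401), and with library weights, at 1.22 (adjusted p = 0.0179). Among fits that left out 1 library the difference was lowest without KO control replicate 1, at 0.93, and not called there.

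**Figure D2:**
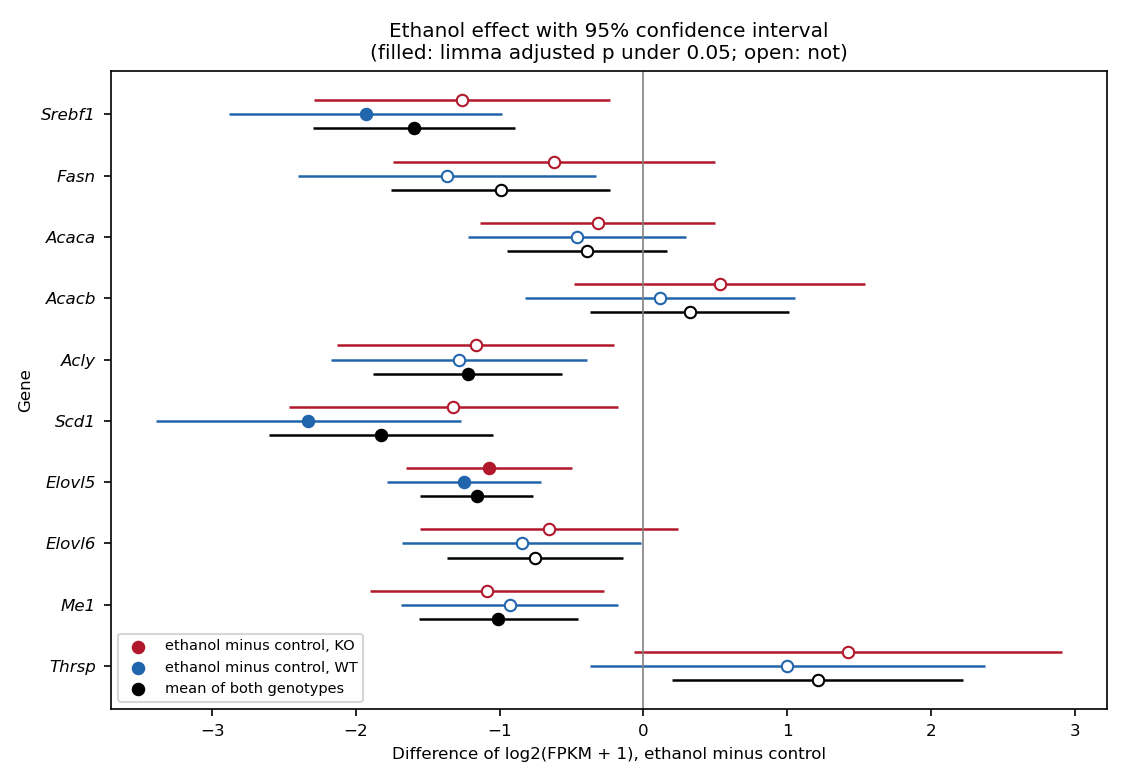
Difference of log2(FPKM + 1), ethanol minus control, for each gene in KO, in WT and for the mean of both genotypes, with 95% confidence intervals from limma over 15 libraries; filled points have an adjusted p under 0.05. In the mean, 5 genes are filled and all 5 lie below 0, while Acacb at 0.32 and Thrsp at 1.21 are above 0 and open.

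Ethanol livers also differed from controls in marker genes of other cells. Summed levels of 8 pancreatic acinar genes were 0.873 to 4.17 FPKM in KO ethanol and 2.48 to 10 FPKM in KO control livers, and 3.19 to 23.8 FPKM in WT ethanol and 24 to 80.8 FPKM in WT control livers. Of these 8, Cpa1, Cpb1, Cela3b, Prss2 and Cel passed the filter on low values only through WT control livers, where they are high. Their levels are part of the sums, and their tests are not used. Ctrb1, Cela2a and Pnlip were called as lower in WT and in the mean of both genotypes. Summed levels of 6 Kupffer cell and macrophage genes were 14.9 to 51.9 FPKM in KO ethanol and 37.1 to 156 FPKM in KO control livers, and 25.7 to 61.9 FPKM in WT ethanol and 48.5 to 74.4 FPKM in WT control livers, with 1 of the 6, Timd4, called as lower in the mean. Of 8 adipocyte genes, Adipoq, Plin1, Lep, Retn and Adig were too low to be tested and Fabp4 was called as higher in the mean, and all 5 skeletal muscle genes summed to under 1 FPKM in every library. Of 7 hepatocyte genes, Tat, Cps1 and Hnf4a were called as higher in the mean. The part of acinar and Kupffer cell RNA in the results was not tested.

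The isoform table allows Srebf1 to be divided by start site. The gene lies on the minus strand of chromosome 11, and 5 different 5′ ends are listed for its 7 isoforms. Those at 60220627 and 60210466 lie 23 and 1 bases from the starts of the coding transcripts Srebf1-201 and Srebf1-207 on GRCm38 and are called the 1a and the 1c start here. SREBP-1c is the form that predominates in liver, and SREBP-1a has a longer activation domain. Isoform values are estimates by Cufflinks, which shares out reads between overlapping transcripts.

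RNA from the 1c start was estimated at 2.98, 1.43, 8.02 and 6.88 FPKM in KO ethanol livers, against 12.9, 11.5 and 16.4 FPKM in KO control livers. It was estimated at 1.30, 13.0, 1.91 and 4.68 FPKM in WT ethanol livers, against 13.9, 12.6, 19.2 and 11.9 FPKM in WT control livers. Levels of 1c were close in KO control and WT control livers, with means of 13.6 ± 2.5 and 14.4 ± 3.29 FPKM (SD, n = 3 and 4). WT ethanol replicate 2 lay within the control range, and the other 7 ethanol livers of both genotypes lay below all controls.

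RNA from the 1a start was estimated at 5.55 ± 3.54 FPKM in KO ethanol and 8.1 ± 1.58 FPKM in KO control livers (SD, n = 4 and 3), and at 6.03 ± 3.36 FPKM in WT ethanol and 8.8 ± 1.72 FPKM in WT control livers (SD, n = 4 each). Its share of Srebf1 averaged 39.4% in KO ethanol and 24.6% in KO control livers, and 41.8% in WT ethanol and 16.2% in WT control livers. The share of 1c averaged 31.2% in KO ethanol and 41.4% in KO control livers, and 29.3% in WT ethanol and 26.5% in WT control livers. The 1a share was thus higher on average with ethanol in both genotypes. The mean 1c share was not lower in WT ethanol (12.4 to 41.5%) than in WT control livers (23.9 to 31.4%). Shares depend on the other starts: the one at 60207427 averaged 2.44% of Srebf1 in WT ethanol and 35.3% in WT control livers. In KO it averaged 13.5% with ethanol and 5.72% in controls. The level of 1c itself averaged 5.22 FPKM in WT ethanol and 14.4 FPKM in WT control livers.

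The isoform that starts farthest downstream, at 60207427, set the WT control livers apart; it was singled out after its values were seen. It was estimated at 0.0679, 5.05 and 0.115 FPKM in KO control livers, against 23, 16.2, 21 and 16.3 FPKM in WT control livers. In ethanol livers it was at most 5.55 FPKM in KO and 1.84 FPKM in WT. It made up 35.3% of Srebf1 on average in WT control livers, and without it Srebf1 stood at 31.2 ± 7.73 FPKM in KO control and 34.9 ± 3.49 FPKM in WT control livers (SD, n = 3 and 4). The same remainder was 13.0 ± 8.54 FPKM in KO ethanol and 15.3 ± 11.4 FPKM in WT ethanol livers (SD, n = 4 each). What this isoform encodes was not examined.

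**Figure D3:**
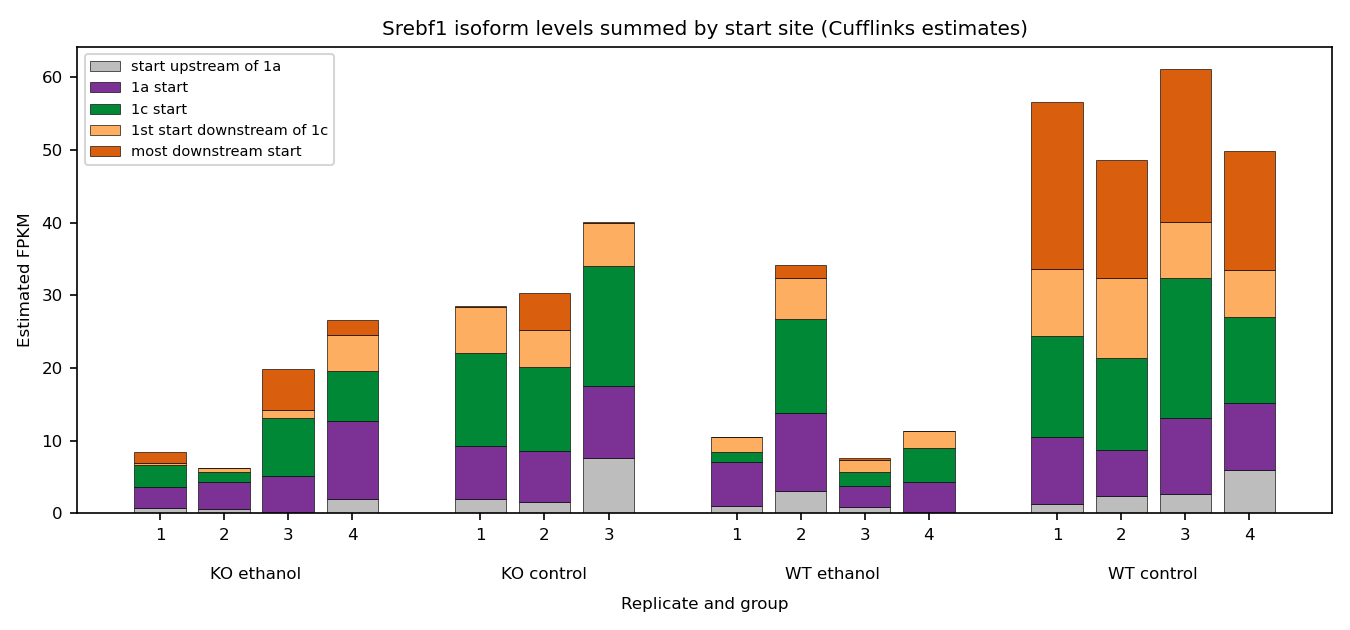
Estimated FPKM of Srebf1 isoforms in each of the 15 libraries, stacked by start site from the one upstream of 1a at the bottom to the most downstream one at the top. The most downstream start reaches 16.2 to 23 FPKM in the 4 WT control livers and at most 5.55 FPKM in the other 11. The 1c level is below that of every control liver in all ethanol livers except WT ethanol replicate 2 at 13.0 FPKM.

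Of 33 isoforms listed for the 10 genes, 27 passed the filter. In KO, 0 were called, against 1.32% of all 22170 isoforms tested, and of the 27 the lowest adjusted p was 0.0827, for the main Elovl5 isoform. In WT 7 fell and 0 rose, against 3.72% of all isoforms called, 2.07% as lower. Those 7 were 2 of Srebf1, 1 each of Acaca, Acly and Scd1, and 2 of Elovl5. In the mean of both genotypes 12 fell, against 11.7% of all isoforms called, 7.39% as lower and 4.34% as higher. An isoform of Acacb also came out as higher. It is set aside, since it passed the filter only through ethanol livers.

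The gene totals of Acaca and Acacb cover isoforms that did not move alike. The Acaca isoform that starts at 84193079 on chromosome 11 fell by 1.51 on the log2 scale in WT (SE 0.24, limma adjusted p = 0.00659) and by 1.03 in the mean of both genotypes (adjusted p = 0.00356). It stood at 3.31, 4.42, 2.77 and 4.05 FPKM in KO ethanol livers, against 8.58, 5.26 and 4.00 FPKM in KO control livers. It stood at 1.87, 2.73, 1.197 and 0.825 FPKM in WT ethanol livers, against 7.51, 7.01, 4.74 and 6.19 FPKM in WT control livers. Here WT ethanol replicate 2 lay below all WT control livers, unlike in the gene total. The isoform that starts at 84179789 had a mean log2 difference of 0.12 (SE 0.19, adjusted p = 0.722).

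The Acacb isoform set aside above reached 1 FPKM in 4 libraries, all of them ethanol livers. It passed the filter only through the livers where it is high, so that its values are given and its test is not used. It stood at 6.04, 2.88, 0.775 and 2.36 FPKM in KO ethanol livers and below 0.01 FPKM in all 3 KO control livers. It stood at 0.222, 0.0136, 3.12e-04 and 6.06 FPKM in WT ethanol livers and below 0.01 FPKM in all 4 WT control livers. The high WT ethanol value is that of replicate 4, whose genotype entry reads KO but whose Fkbp5 level, 45.2 FPKM, was above that of every KO liver.

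Loss of Fkbp5 by itself gave no call among the 10 genes. On control diet 0 of the 10 were called between KO and WT livers, against 0.181% of all genes, and 1 of the 10 had an unadjusted p under 0.05 (585 of 13840 genes did). All 10 log2 differences, KO minus WT, were below 0, with a median of -0.46 over the 10 genes and 0.03 over all genes. Scd1 had the largest, at -1.51 (95% interval -2.65 to -0.37, limma adjusted p = 0.719), and was lower than the WT mean in 3 of 3 KO livers. For Srebf1 the difference was -0.70 (95% interval -1.73 to 0.32, adjusted p = 1); all 3 KO control livers lay below all 4 WT control livers, as was so for 2.27% of all genes, with an exact permutation p of 0.0571, the smallest possible. Elovl5 at -0.20 (95% interval -0.78 to 0.38) and Acaca at -0.25 (95% interval -1.07 to 0.56) were near 0, and these intervals still allow sizeable changes.

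Other values moved with genotype on control diet. Summed levels of the 8 acinar genes were 2.48 to 10 FPKM in KO control and 24 to 80.8 FPKM in WT control livers. Their calls are not used here, since most of them passed the filter only through WT control livers. A limma fit with library weights called Scd1 (adjusted p = 0.00544) and Me1 (adjusted p = 0.0404) as lower in KO. That fit called 669 of all 13840 genes in this comparison, against 25 without weights.

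With ethanol 0 of the 10 genes were called between KO and WT livers, against 0.101% of all genes, and 1 of the 10 had an unadjusted p under 0.05 (692 of 13840 genes did). The median log2 difference, KO minus WT, was -0.09 over the 10 genes and -0.02 over all genes. Srebf1 averaged 15.2 ± 9.61 FPKM in KO ethanol and 15.9 ± 12.3 FPKM in WT ethanol livers (SD, n = 4 each), a log2 difference of -0.03 (95% interval -0.98 to 0.92, limma adjusted p = 1). Me1 had the lowest p, with 13.0 ± 3.99 FPKM in KO ethanol and 24.8 ± 12.5 FPKM in WT ethanol livers (SD, n = 4 each) and a log2 difference of -0.80 (adjusted p = 0.989). For Srebf1, Fasn, Acaca, Acacb, Acly, Elovl5, Elovl6 and Thrsp the sign of this difference turned under at least 1 other setting or left-out library.

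Whether ethanol acted differently in the 2 genotypes was tested directly. The difference of the ethanol effects, KO minus WT, gave 0 calls among the 10 genes and 0 among all 13840 (0%), with unadjusted p under 0.05 for 0 of the 10 and for 553 genes. It was 0.67 for Srebf1 (95% interval -0.73 to 2.07), 1.01 for Scd1 (95% interval -0.55 to 2.57) and 0.17 for Elovl5 (95% interval -0.61 to 0.96), each with a limma adjusted p of 1. The ethanol effects in KO and in WT are therefore not shown to differ for any of the 10 genes, nor shown to be alike.

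**Figure D4:**
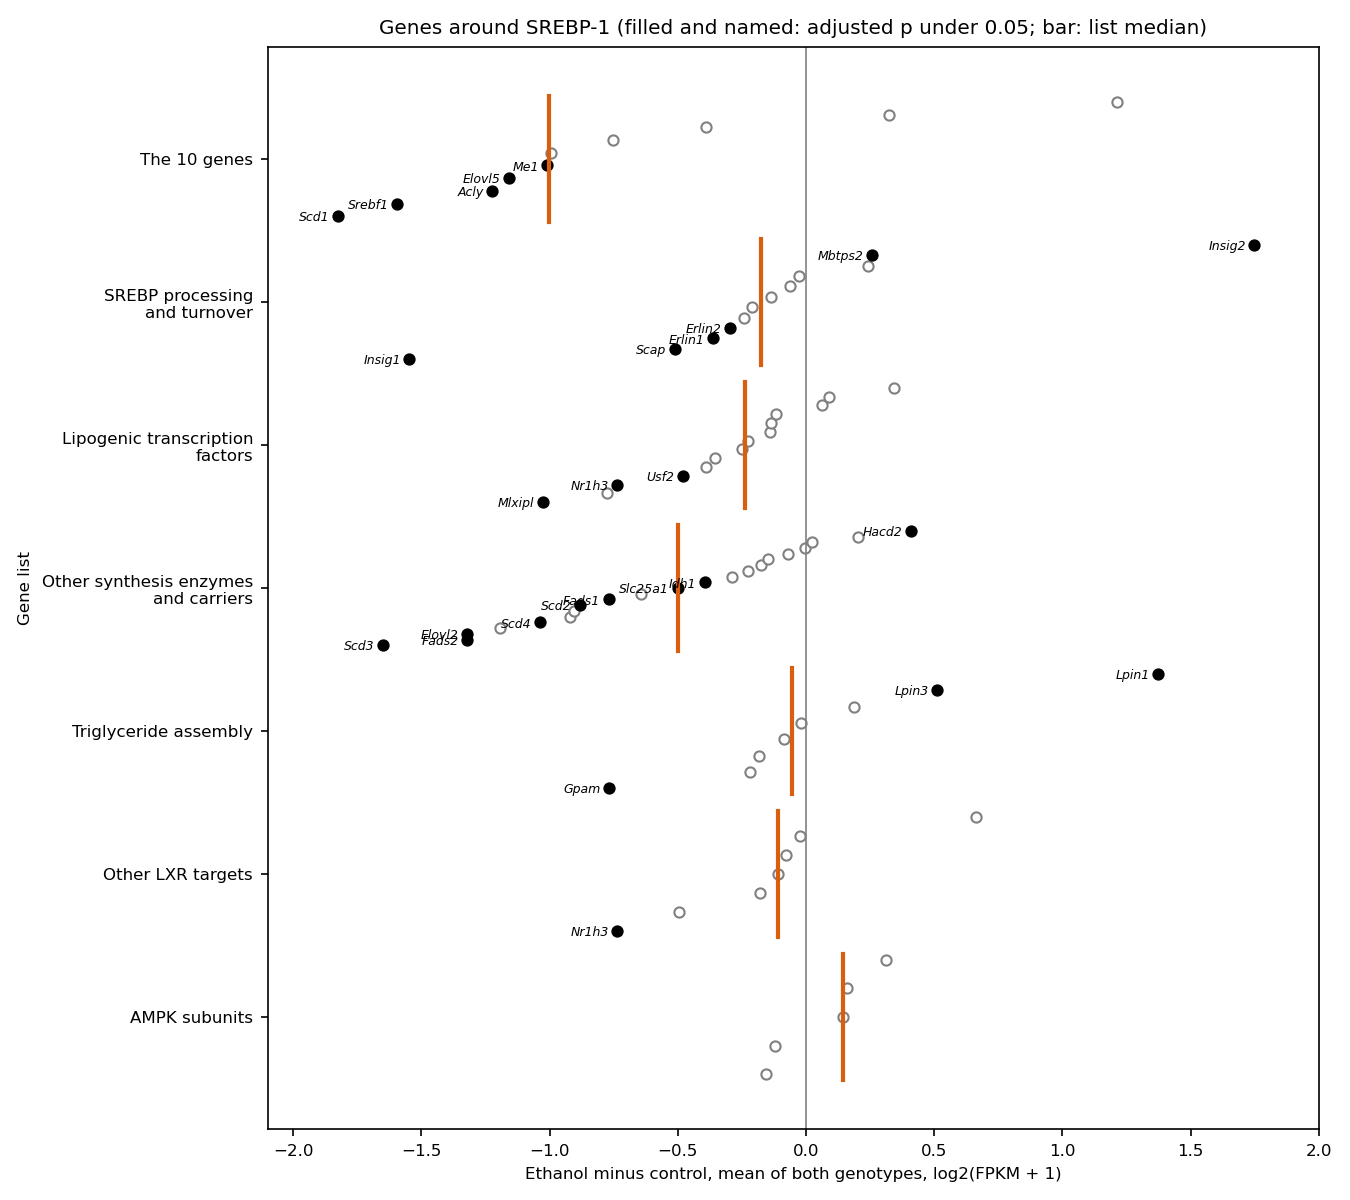
Difference of log2(FPKM + 1), ethanol minus control, mean of both genotypes, for the 10 genes and for 6 lists of genes around SREBP-1; each point is a gene, filled and named points have a limma adjusted p under 0.05, and bars mark list medians. Insig1 at -1.55 and Insig2 at 1.75 stand at opposite ends of the list on SREBP processing, and the 10 genes have the lowest median, -1.001.

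Among 12 genes of SREBP processing and turnover, 2 rose and 4 fell in the mean of both genotypes, where 20.9% of all genes were called, 13.9% as lower. The list median was -0.17, against -0.07 over all genes. Insig1, an INSIG that SREBPs themselves induce, stood at 18.3, 36.6, 16.7 and 144 FPKM in KO ethanol livers, against 68.5, 53.8 and 81.7 FPKM in KO control livers. It stood at 50.4, 16.9, 9.40 and 23.8 FPKM in WT ethanol livers, against 99.1, 94.6, 116 and 96.9 FPKM in WT control livers. KO ethanol replicate 4 held the highest Insig1 value of the study, while all 4 WT ethanol livers lay below the WT controls. Insig1 fell by 2.21 on the log2 scale in WT (SE 0.58, limma adjusted p = 0.037) and by 1.55 in the mean (SE 0.43, adjusted p = 0.0225), and its KO difference was -0.88 (adjusted p = 0.443).

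Insig2, the INSIG of the fasted liver, stood at 291, 150.5, 167 and 62.2 FPKM in KO ethanol livers, against 59.9, 26.3 and 42.6 FPKM in KO control livers. It stood at 102, 113, 71.6 and 112 FPKM in WT ethanol livers, against 30.9, 32.1, 37.2 and 21.7 FPKM in WT control livers. Every ethanol liver was above every control liver of either genotype. Insig2 rose by 1.82 on the log2 scale in KO (SE 0.41, limma adjusted p = 0.0312) and by 1.68 in WT (SE 0.38, adjusted p = 0.0215). WT ethanol replicate 2, the highest of its group for all 10 lipogenic genes, had 16.9 FPKM of Insig1 and 113 FPKM of Insig2, values like those of the other WT ethanol livers.

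The other changes in this list were smaller. Scap, the escort of SREBP, averaged 18.2 ± 2.84 FPKM in KO ethanol and 24.8 ± 3.13 FPKM in KO control livers, and 17.4 ± 4.45 FPKM in WT ethanol and 26.2 ± 2.99 FPKM in WT control livers (SD, n = 4 except KO control, n = 3), and it fell by 0.51 in the mean. Erlin1 and Erlin2, which act in the removal of membrane proteins from the endoplasmic reticulum, fell by 0.36 and 0.30, and Mbtps2, the site-2 protease, rose by 0.26. The limma adjusted p of these 4 genes lay between 0.0147 and 0.0434, and of them Erlin2 was also called in WT, at -0.38 (adjusted p = 0.0455). Srebf2, which governs cholesterol synthesis, had a mean difference of -0.21 (adjusted p = 0.125).

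Among 14 transcription factors and cofactors of lipogenic promoters, 3 fell and 0 rose in the mean of both genotypes. The share called is near the 20.9% of all genes called in this comparison, and the list median was -0.24, against -0.07 over all genes. Mlxipl, which encodes the glucose-responsive factor ChREBP, averaged 36.0 ± 7.58 FPKM in KO ethanol and 72.2 ± 5.83 FPKM in KO control livers (SD, n = 4 and 3). It averaged 40.6 ± 22.1 FPKM in WT ethanol and 79.8 ± 29.0 FPKM in WT control livers (SD, n = 4 each), a mean log2 difference of -1.03 (SE 0.26, limma adjusted p = 0.0149). Nr1h3, the gene of LXR alpha, averaged 17.04 ± 4.69 FPKM in KO ethanol and 30.1 ± 5.68 FPKM in KO control livers (SD, n = 4 and 3). It averaged 17.6 ± 5.73 FPKM in WT ethanol and 27.4 ± 0.847 FPKM in WT control livers (SD, n = 4 each), a mean log2 difference of -0.74 (SE 0.16, adjusted p = 0.00643). The third, Usf2, whose product binds E-boxes, fell by 0.48 (adjusted p = 0.0138).

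Of 7 LXR targets outside fatty acid synthesis, Nr1h3 was the only one called in the mean of both genotypes. Abca1, which shares the element shown above, had a difference of 0.67 (SE 0.23, limma adjusted p = 0.0509), the sign opposite to that of Srebf1 and Fasn. Of 5 tested subunits of AMPK, the kinase that phosphorylates the acetyl-CoA carboxylases, 0 were called, with Prkag1 lowest in p at 0.16 (adjusted p = 0.114).

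Among 21 tested genes of other synthesis enzymes and carriers, 8 fell and 1 rose in the mean of both genotypes, against 13.9% of all genes called as lower. The list median was -0.50, against -0.07 over all genes. The desaturase relatives Scd2, Scd3 and Scd4 fell by 0.88, 1.65 and 1.04, and in WT by 1.32, 2.21 and 1.42. Scd3 stood at 3.02, 1.69, 4.75 and 4.06 FPKM in KO ethanol livers, against 13.5, 2.99 and 11.3 FPKM in KO control livers. It stood at 6.19, 7.04, 3.31 and 2.74 FPKM in WT ethanol livers, against 35.5, 27.5, 29.1 and 12.8 FPKM in WT control livers. As with Scd1, KO control replicate 2 lay near the ethanol livers, and reads may be shared between these relatives.

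Elovl2, Fads1 and Fads2, which act with Elovl5 in making long polyunsaturated fatty acids, also fell. Elovl2, an elongase, averaged 53.8 ± 23.8 FPKM in KO ethanol and 154 ± 18.9 FPKM in KO control livers (SD, n = 4 and 3), and fell by 1.60 in KO (limma adjusted p = 0.0349) and by 1.32 in the mean. The desaturases Fads1 and Fads2 fell by 0.77 and 1.32 in the mean. Slc25a1, the mitochondrial citrate exporter, fell by 0.50, and Idh1, a source of cytosolic NADPH, by 0.39. Hacd2, a dehydratase of the elongation cycle, rose by 0.41. The adjusted p of these genes in the mean lay between 0.00385 and 0.0359.

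Of 8 tested genes of triglyceride assembly, 2 rose and 1 fell in the mean of both genotypes, against 20.9% of all genes called, with a list median of -0.05. Lpin1, a phosphatidate phosphatase and transcriptional coactivator, averaged 145 ± 65.9 FPKM in KO ethanol and 51.2 ± 13.8 FPKM in KO control livers (SD, n = 4 and 3). It averaged 98.1 ± 60.1 FPKM in WT ethanol and 33.1 ± 13.8 FPKM in WT control livers (SD, n = 4 each), and rose by 1.37 in the mean (SE 0.41, limma adjusted p = 0.0313). Its lowest value in any ethanol liver was 22.9 FPKM, in WT ethanol replicate 2. Lpin3 rose by 0.51 (adjusted p = 0.036), and Gpam, which catalyses the first step of glycerolipid synthesis and is a target of SREBP-1c, fell by 0.77 (adjusted p = 0.0427).

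Within a single genotype 0 genes of the lists on transcription factors, LXR targets, AMPK and triglyceride assembly were called. No gene of the 6 lists was called between KO and WT on either diet or in the difference of the ethanol effects.

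The 10 genes varied together to unequal degrees. Correlations of log2(FPKM + 1) with Srebf1 over the 15 libraries are given as descriptions, since the libraries share groups and differences in depth. Pearson's r was 0.91 for Acly, 0.87 for Elovl5, 0.84 for Scd1, 0.82 for Fasn and 0.81 for Me1, and it was -0.13 for Acacb and -0.18 for Thrsp. For 95% of all genes r was at most 0.74. With group means removed it was 0.80 for Acly, 0.66 for Me1 and for Elovl6, 0.64 for Fasn and 0.58 for Elovl5. It was 0.545 for Acaca, 0.54 for Scd1, 0.50 for Thrsp and 0.07 for Acacb, while 95% of all genes had at most 0.57. Acaca, Thrsp and Acacb were thus not beyond the range of 95% of genes in either measure. Scd1 was beyond it only before group means were removed. The closest pair with group means removed was Fasn and Elovl6 at 0.92, followed by Fasn and Acaca at 0.86. WT ethanol replicate 2, the highest of its group for every gene, is part of each of these values.

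Outside the 10 genes and the lists, the named genes most like Srebf1 over the 15 libraries by Pearson's r were Tmem184a (0.93), Pstpip2 (0.93), Nit2 (0.92), Stx4a (0.92) and Btrc (0.92). Their mean log2 differences, ethanol minus control, lay between -0.29 for Btrc and -0.81 for Nit2, smaller than that of Srebf1.

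**Figure D5:**
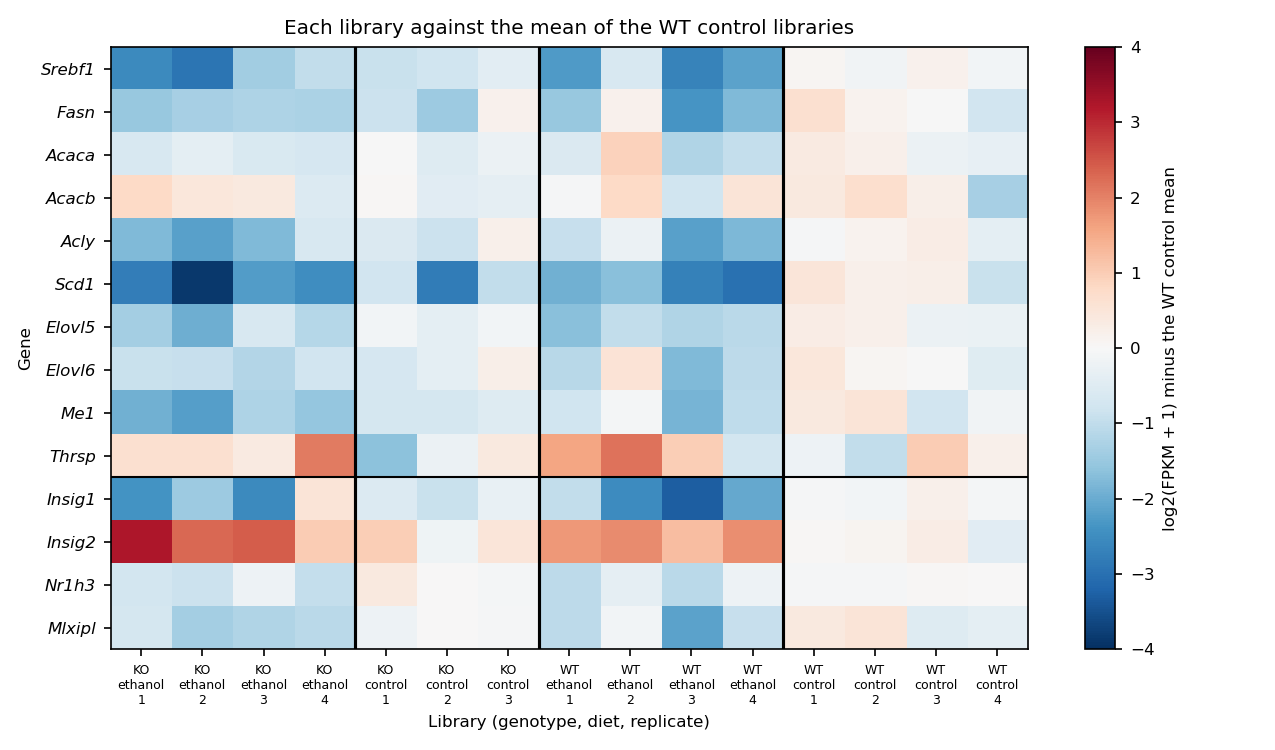
Log2(FPKM + 1) of the 10 genes and of Insig1, Insig2, Nr1h3 and Mlxipl in each of the 15 libraries, minus the mean of the WT control libraries; blue is below and red above that mean, from -3.85 to 3.24. Insig2 is red in all 8 ethanol livers, and WT ethanol replicate 2 is paler than its group for most lipogenic genes.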

How the data were processed

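Values are FPKM per gene and per isoform as deposited by the authors. Per the submitters' processing notes, TopHat, Cufflinks and Cuffdiff were used and the build was mm9; versions are not given in the sources used here. Start and end of 7 of the 10 genes equalled the GRCm38 annotation and 1 end of the other 3 did, so that coordinates are given as GRCm38. FPKM depends on the annotated length and on the library's total, and holds no counts, so that no count model was used.

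Genes reaching 1 FPKM in 3 or more libraries were put on the scale log2(FPKM + 1) and fitted with limma 3.58.1 (R 4.3.3, moderated with a mean trend); 4 group means gave 6 comparisons, with Benjamini-Hochberg adjustment over all genes. Adding 1 FPKM understates changes of low genes. Exact permutation tests of single genes were 2-sided. Isoforms were fitted likewise. Among the alternatives were a different pseudocount, filter or scaling, no trend, weights per library, a sex term from Xist above 10 FPKM, regrouping of WT ethanol replicate 4, a replicate block, only the groups compared, and each library left out. Groups follow the titles, and replicates are taken as separate mice. The p-values of the main limma fit rest on the spread of libraries within all 4 groups together, also where only 2 groups are compared. The genes, lists and tests were chosen with earlier results of these data known. All 10 genes are named in every comparison or summarised; of each list, called genes are named, up to 8, and otherwise those lowest in p. The estimate of fragments per library rests on the smallest steps of FPKM in genes of 1 isoform. Sequences are from RefSeq tables; Python 3.11.15 was used for these and for plots.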

Additional observations from a re-analysis of the deposited data

Results flagged for a closer look

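Dixon's test was run on FPKM in 30 sets of 4 livers (10 genes in the 3 groups of 4). Chance flags about 1 of 20 independent sets, but these sets share livers, and many of the genes vary together. In 6 sets a liver lay far from the other 3. Of these, 4 were in WT ethanol replicate 2, which stood above the others with 34.1 FPKM of Srebf1, 92.8 FPKM of Fasn, 33.4 FPKM of Acaca and 19.7 FPKM of Elovl6. It was the highest of its group for all 10 genes, with a median deviation of 1.48 on the log2 scale from the mean of the others, and its Fkbp5 level, 23.9 FPKM, was the lowest of WT ethanol livers.

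The other 2 were in KO ethanol replicate 4, with 32.0 FPKM of Acly and 439.5 FPKM of Thrsp, each above the rest of its group. This liver also had the highest Insig1 value of the study, 144 FPKM. The cause was not tested for either liver. For 0 genes did every KO liver move opposite to every WT liver.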

How the results depend on the processing

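Srebf1, Acly, Scd1, Elovl5 and Me1 were lower with ethanol in the mean of both genotypes under all 27 alternatives, and each kept its call except Me1 with all libraries scaled to a common FPKM sum (adjusted p = 0.068). Counts of called genes among the 10 depended on the setting. In KO the count of 1 became 0 without a filter, with median-ratio, quantile or common-sum scaling, with the replicate block, with the Xist term and with only the groups compared, and it became 5 with library weights, 4 of them lower and Acacb higher. With library weights it became 5 in WT, 8 in the mean and 2 for KO against WT on control diet. With quantile normalization it became 4 in WT, with Acly, and 6 in the mean, with Fasn; without a filter it became 2 in WT, and regrouping WT ethanol replicate 4 gave 6 in the mean, with Thrsp as higher. Leaving out 1 library gave 0 to 1 in KO, 2 to 7 in WT and 5 to 8 in the mean. For isoforms, the KO count of 0 became 1 with a filter of 5 FPKM and 0 to 2 with 1 library left out, and the WT count of 7 became 4 to 12. The cause was not tested.

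The sign turned in several values that were not called. Acaca in KO was 0.008 with the common sum. Acacb in WT was -0.095 with library weights and -0.015 with WT ethanol replicate 4 counted as KO. Thrsp on control diet, KO minus WT, was 0.13 with library weights. With ethanol, KO minus WT was 0.005 (median ratio), 0.08 (common sum) and 0.06 (Xist term) for Srebf1; 0.007, 0.074 (quantile), 0.09, 0.077 (Xist term) and 0.061 (regrouped) for Elovl5; 0.032 (quantile) and 0.038 (common sum) for Thrsp; 0.003 for Acaca and 0.009 for Elovl6 (common sum); and -0.297 (weights) and -0.18 (regrouped) for Fasn. The difference of effects was 0.286 (common sum) and 0.088 (Xist term) for Me1, -0.603 (weights) and -0.485 (regrouped) for Thrsp, and -0.1 for Acaca and Acly (regrouped). With 1 library left out, KO minus WT with ethanol ran from -0.354 to 0.35 for Acaca, -0.143 to 0.43 for Acacb, -0.618 to 0.048 for Acly, -0.239 to 0.198 for Elovl5, -0.402 to 0.374 for Elovl6, -0.301 to 0.553 for Fasn, -0.357 to 0.397 for Srebf1 and -0.659 to 0.305 for Thrsp. The difference of effects ran from -0.102 to 0.601 for Acaca, -0.194 to 0.472 for Acly, -0.039 to 0.398 for Elovl5, -0.123 to 0.654 for Elovl6, -0.466 to 0.125 for Me1 and -0.156 to 0.863 for Thrsp. Acacb in WT ran from -0.323 to 0.416 and Thrsp on control diet from -0.945 to 0.069.

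The common sum moved the median of all genes by 0.26 in KO. Of all genes 571 were called in KO and 1066 in WT, against 4140 and 2248 with library weights. Whether replicate numbers pair the libraries cannot be told. Of 21 pairs with the same number, 7 had a correlation over 0.1 (-0.329 to 0.444), and pairs with different numbers were not compared. With the replicate block 0, 3 and 5 of the 10 genes were called in KO, WT and the mean, and 303, 673 and 2531 of all genes. Depth is not known exactly, so that no counting error is given.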
